A study of Homo sapiens with 3 samples.

Results

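KIF5C with its antisense transcript KIF5C-AS1, AGBL5 and ORC6 each held a single region of strong peaks in RNA crosslinked to HNRNPA0. In KIF5C and AGBL5 this region was divided into touching peaks in some or all replicates. The question asked was whether the region belonged to the messenger RNA or to a small RNA gene lying inside the same interval. The members were the peaks inside the RefSeq intervals of these 4 genes, on both strands of hg38. They came to 7, 5 and 5 peaks of the 15661, 15486 and 17791 distinct peaks of replicates 1, 2 and 3, and to 4 of the 7171 nuclear RefSeq genes with a peak in any replicate. The genes had been chosen by the read numbers of these peaks in all 3 replicates, so their read numbers are a description and carry no test.

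The series consists of 3 easyCLIP libraries that form 1 group, labelled as HEK293T cells of genotype WT. HEK293T is a line of human embryonic kidney origin. All 3 replicates received 750 ng of vector per 15 cm plate to express HNRNPA0 with an HA tag and were irradiated at 254 nm, so the protein was tagged and overexpressed throughout, and no untransfected or input library was used here. Nothing in the labels says whether the replicates came from separate cultures. The spread given here may therefore be technical. Of 4 genes listed as typical of the line, VIM and NEFM held peaks and NEFL and PAX2 held none, and none of 7 markers of other cell types did. Nuclear-encoded peaks had summed read numbers of 100038, 99141 and 114203. The read number is the whole number at the end of each deposited peak name, taken here as the reads in the peak.

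HNRNPA0 belongs to the hnRNP A/B proteins and is known to bind AU-rich stretches of messenger RNA. KIF5C encodes a heavy chain of kinesin-1, the motor that carries cargo along microtubules, and is best known from neurons. AGBL5 encodes a cytosolic carboxypeptidase that removes glutamate side chains from tubulin, and ORC6 encodes a subunit of the origin recognition complex, which marks the sites where DNA replication starts. Transfer RNA genes are transcribed by RNA polymerase III as precursors with extra nucleotides at both ends. The 5' leader and the 3' trailer are then cut off, and human tyrosine tRNA genes also carry a short intron that is spliced out. A small RNA gene inside the interval of a messenger RNA gene is a separate source of RNA, but a peak list that names genes by interval can assign its reads to the host.

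The strongest region of AGBL5 coincided with a tyrosine tRNA gene. The region ran from 27050781 to 27050888 on the plus strand of chromosome 2, and the RefSeq interval of TRY-GTA2-1 runs from 27050782 to 27050870, inside the AGBL5 interval of 27050364 to 27070618. All 89 nt of the tRNA gene were covered. The highest read numbers were 72, 90 and 55 in replicates 1, 2 and 3, or 72.3 ± 17.5 (SD, n = 3). Replicate 2 was the highest and replicate 3 the lowest. The deposited names gave these peaks the Ensembl gene ID ENSG00000084693.15, under which no other peak inside the interval was listed.

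The ends of the AGBL5 peaks followed the tRNA gene closely at its 5' side and passed it at its 3' side. The first peak of replicate 1 began 1 nt before the tRNA gene, that of replicate 2 at its position 2 and that of replicate 3 at its position 3. On the 3' side the peaks ended 17, 17 and 18 nt past the annotated end. Replicate 2 was divided into a peak of 86 nt and a touching peak of 19 nt, and the division lay 2 nt before the annotated 3' end. In replicate 3 the touching peaks were 88 and 17 nt wide and were divided 1 nt past that end. The short 3' peaks had read numbers of 85 and 49, close to the 90 and 55 of the long ones. Touching peaks can hold the same reads, so summed read numbers, here and for whole lists, may count reads more than once. Replicate 1 had a single peak of 107 nt.

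No other part of the AGBL5 interval held a peak. The gene spans 20255 bp, and the region covers 0.533% of it. A second tRNA gene, TRA-AGC8-1, an alanine tRNA gene at 27051214 to 27051286, starts 326 nt after the region and held no peak in any replicate. The start site that the RefSeq promoter table gives for AGBL5, at 27051668, lies 780 nt downstream of the region. The region is thus inside the outer gene interval but before that start. The neighbouring AGBL5-AS1, EMILIN1 and OST4, of which OST4 overlaps the end of AGBL5, held no peak either.

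**Figure D1:**
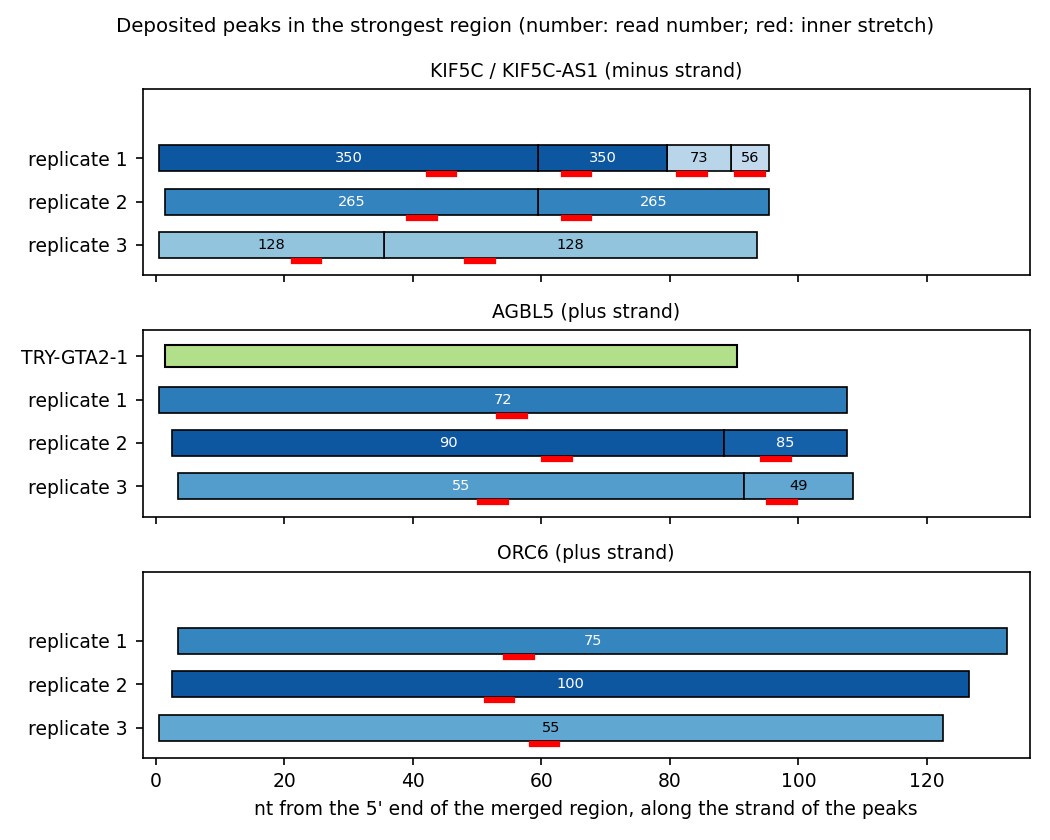
Deposited peaks in the strongest region of KIF5C with KIF5C-AS1, AGBL5 and ORC6. The horizontal axis is the distance in nt from the 5' end of the merged region along the strand of the peaks, each blue bar is a deposited peak with its read number (darker for higher numbers within a gene), and the red marks are the inner stretches that the authors' lists give. The green bar is TRY-GTA2-1, which the AGBL5 peaks pass by 17 to 18 nt at the 3' end.

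Among tyrosine tRNA genes the same 3' extension was seen once more. Of 13 genes named for tyrosine tRNA, 2 held a peak, TRY-GTA2-1 and TRY-GTA5-1. TRY-GTA5-1, at 66113367 to 66113459 on chromosome 8, lies inside the interval of TRIM55 and had read numbers of 49, 50 and 40. Its region began 8 nt before the gene and also ended 18 nt past it. Tyrosine tRNA genes are close copies of one another, and how the authors placed reads that match several copies is not given in the sources used here, so the division of reads between copies is uncertain.

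Across all nuclear tRNA genes, regions of this kind were uncommon and their 3' ends varied. A region shared by all 3 replicates was found at 12 of 443 tRNA genes (2.71%), and 18 held a peak in any replicate. TRY-GTA2-1 had the next highest mean read number after TRU-TCA1-1, the selenocysteine tRNA gene, whose 242 ± 101 was more variable (SD, n = 3). The table gives no strand for tRNA genes, so their 5' and 3' ends were taken from the strand of the peaks. Among the other 11 tRNA genes with such a region, 6 regions ended 14 nt or more past the gene and 5 ended at most 5 nt past it. TRU-TCA1-1 had both ends of its region exactly at those of the gene, and TRK-CTT1-1, a lysine tRNA gene with read numbers of 31, 55 and 66, had a region ending 2 nt past its 3' end. The longest extension, 72 nt, belonged to TRG-TCC2-6, a glycine tRNA gene with a mean read number of 6.67. Of the 12 regions, 8 lay in tRNA genes that overlap the interval of a protein-coding gene, against 49 of all 443 tRNA genes (11.1%). Deposited peak names carry a gene ID, and whether positions outside such genes were searched for peaks is not given. The low count of tRNA genes and the difference between these shares therefore cannot be told apart from the peak calling.

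**Figure D2:**
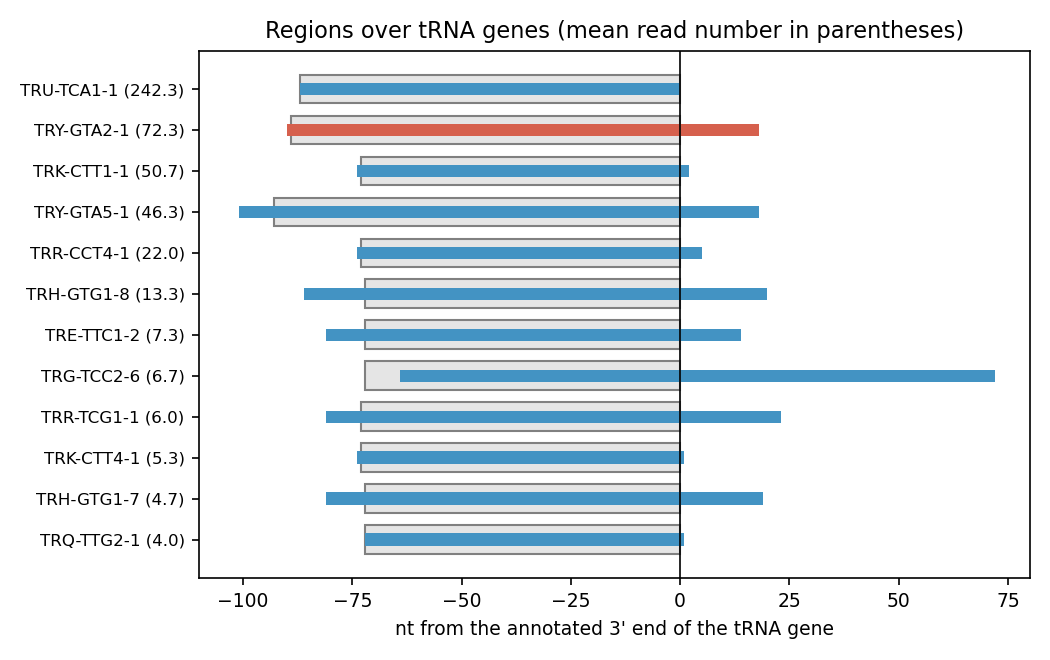
Regions found in all 3 replicates over tRNA genes. The horizontal axis is the distance in nt from the annotated 3' end of the tRNA gene, grey boxes are the genes, and coloured bars are the merged regions, red for TRY-GTA2-1 inside AGBL5 and blue for the other 11. The red bar and that of TRY-GTA5-1 both end 18 nt past the gene.

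In the KIF5C interval every peak lay on the strand opposite to KIF5C. KIF5C runs from 148875227 to 149026759 on the plus strand of chromosome 2, and its 151533 bp held no plus-strand peak in any of the 3 replicates. The minus strand held 4, 2 and 2 peaks that together filled 1 region, 148881726 to 148881820, under the gene ID ENSG00000231079.7. This region overlaps KIF5C-AS1, a long noncoding RNA gene at 148872997 to 148895014, and lies 6499 nt downstream of the first KIF5C start site. The highest read numbers were 350, 265 and 128, or 248 ± 112 (SD, n = 3). Replicate 1 was highest and replicate 3 lowest, and the spread of this region was the widest of the members.

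By read number this was among the highest of all nuclear-encoded regions. Its mean ranked 5 of the 84 regions that were found in all 3 replicates with a mean of 50 or more, called strong here. Within single replicates its peak ranked 3 among nuclear-encoded peaks in replicates 1 and 2 and 66 in replicate 3. Per 100000 nuclear-encoded read numbers it took 350, 267 and 112 in replicates 1, 2 and 3. The lowest deposited p-value in the region was 0 in replicates 1 and 2 and 1.9e-208 in replicate 3.

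The outline of the antisense region was short and nearly the same in each replicate. Its width was 95, 94 and 93 nt in replicates 1, 2 and 3. The 3' border lay at 148881726, 148881726 and 148881728, and the 5' border at 148881820, 148881819 and 148881820. Inside it the division into peaks differed: replicates 1 and 2 were both divided after nt 59 from the 5' end, and replicate 3 after nt 35. Touching peaks of the same replicate carried equal read numbers of 350 and 350, 265 and 265, and 128 and 128. Replicate 1 had in addition the peaks of 10 and 6 nt at the 3' end, with read numbers of 73 and 56.

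No small RNA gene of the RefSeq table overlapped the antisense region. The table holds 3742 nuclear genes for tRNA, small nuclear and nucleolar RNA, microRNA, Y, vault, 7SK, 7SL and 5S RNA and the RNA of RNase P and MRP. The nearest of them on chromosome 2, MIR9899, a microRNA gene, lies 448 kb away. The rest of the KIF5C-AS1 interval, 8729 nt on one side of the region and 13194 nt on the other, held no peak. LOC101928553, a long noncoding RNA locus that also lies in the KIF5C interval, held none, and neither did the neighbours LYPD6B and USP8P2. An unannotated small RNA and a fragment of KIF5C-AS1 cannot be told apart from these lists.

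ORC6 differed from the others in the place of its region. The region ran from 46698114 to 46698245 on the plus strand of chromosome 16, the strand of ORC6, whose interval is 46689659 to 46698394. It ended 149 nt before the end of the gene, with its centre at 97.5% of the way along. Its highest read numbers were 75, 100 and 55, or 76.7 ± 22.5 (SD, n = 3), and the deposited p-values were 1.4e-83, 1.6e-116 and 8.7e-59. As in AGBL5, replicate 2 was highest and replicate 3 lowest. A single peak of 129, 124 and 122 nt filled it in replicates 1, 2 and 3, with no touching neighbour.

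ORC6 was also the one gene of the 4 with a peak elsewhere. Replicate 1 held a plus-strand peak of 37 nt at 46697462 to 46697498 with a read number of 5, which lies 616 nt before the strong region. The strong region held 97.9% ± 3.61 of the summed read number of the gene (SD, n = 3), whereas in KIF5C and AGBL5 it held 100% in each replicate. The 100% of KIF5C rests on replicate 3, whose peaks join the touching peaks of the other lists: without it the interval held 2 touching regions, and the stronger held 46.1%. Since touching peaks can hold the same reads, the 46.1% does not show that the remaining reads lay outside the stronger region. No small RNA gene overlaps the ORC6 interval, and the nearest on the chromosome, SNORD148, a small nucleolar RNA gene, lies 188 kb away. VPS35, the neighbour that encodes a retromer subunit, held 3, 3 and 1 peaks, and MYLK3 on the other side held none.

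**Figure D3:**
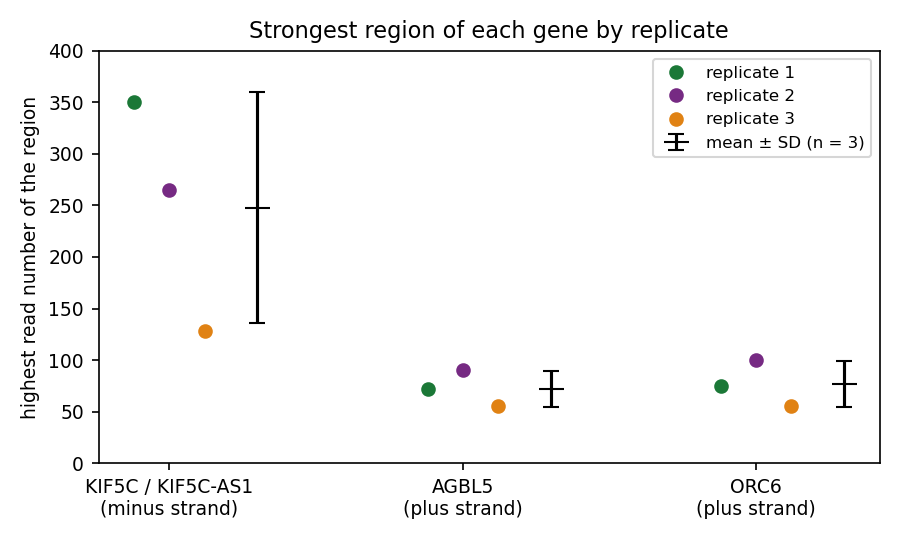
Highest read number of the strongest region in each gene. Points are the 3 replicates and black bars the mean ± SD. The KIF5C region spans 128 to 350, while the AGBL5 and ORC6 regions overlap between 55 and 90, with replicate 3 lowest in all of them.

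Replicate 3 was the lowest for all 3 regions. Its nuclear-encoded peaks had the largest summed read number of the replicates. With mitochondrial peaks included its sum was the smallest, 221013 against 268608 in replicate 1 and 268445 in replicate 2. Replicate 3 divided by the mean of replicates 1 and 2 gave 0.42 for KIF5C, 0.68 for AGBL5 and 0.63 for ORC6. The median of this ratio over the 84 strong regions was 1.16, and it was below 1 in 28 of them, or 33.3%. Of these regions 30 lie in XIST, with a median of 1.67, and over the other 54 the median was 0.99, with 27 below 1. Over all 2337 nuclear-encoded regions in all 3 replicates the median was 1, and the ratio was below 1 in 47.8%. A ratio as low as that of KIF5C or lower occurred in 62 of the 2337 and in 3 of the 84 strong ones, and one as low as that of AGBL5 or lower in 488 and 6. The 6 strong ones were the 3 members, RNU6-9, a gene for the U6 small nuclear RNA, at 0.36, and a single region each of XIST, at 0.29, and NUCKS1, at 0.51. The other strong XIST regions were all above 1, and XIST and NUCKS1 were named after their values were seen. TRU-TCA1-1 went the other way, with read numbers of 134, 258 and 335 and a ratio of 1.71. With 1 library per replicate and 1 group, this is a difference between libraries with no test.

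**Figure D4:**
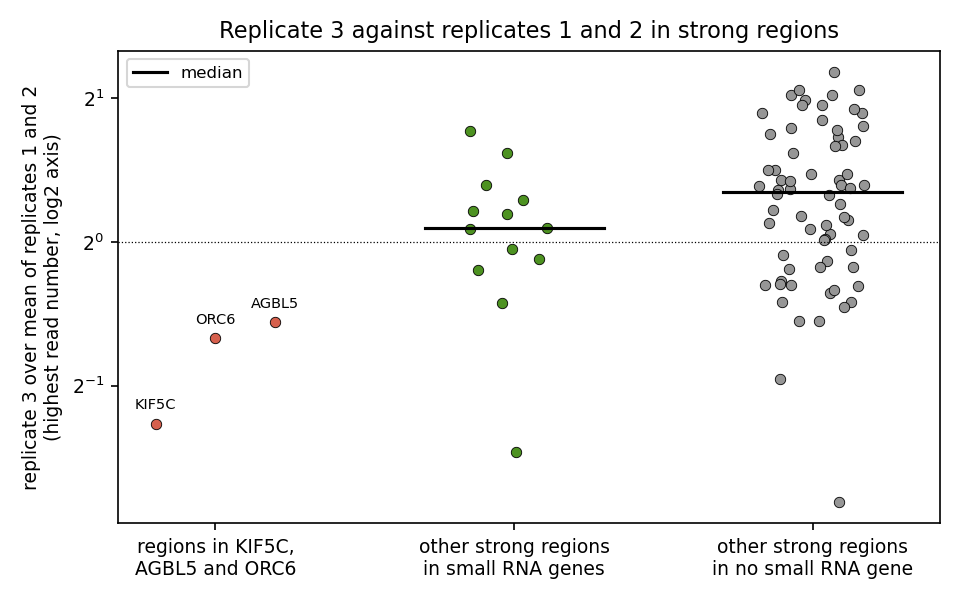
Ratio of replicate 3 to the mean of replicates 1 and 2 in strong regions, on a log2 axis. Columns are the regions in KIF5C, AGBL5 and ORC6, the other 13 strong regions in small RNA genes and the other 68 in none, and black lines are medians of 1.07 and 1.27, the last column including 30 regions of XIST. The 3 points of the first column lie below 1.

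The borders of the regions were compared with those of the other strong regions. The choice of members did not use border positions, but it did favour genes with a single region. Of the strong regions, 30 lie in XIST and 12 in NUCKS1, where regions lie close to one another. The comparison is therefore not independent of the choice. Over the replicates the 2 ends moved by 2 and 1 nt in KIF5C, by 3 and 1 nt in AGBL5 and by 3 and 10 nt in ORC6. Taking the larger shift of the ends, 8 of the 84 strong regions moved by as little as AGBL5 or less, and 25 by as little as ORC6 or less. Both ends stayed within 5 nt in 10 strong regions (11.9%), KIF5C and AGBL5 among them, a limit chosen after the values were seen. Of the strong regions in small RNA genes, that of AGBL5 included, 5 of 14 met it, against 5 of the 70 in no small RNA gene, that of KIF5C included. The 4 others in no small RNA gene belonged to NUCKS1, NCL and, with 2 regions, PTMA. Regions are not independent replicates, and no test was attached to these shares.

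**Figure D5:**
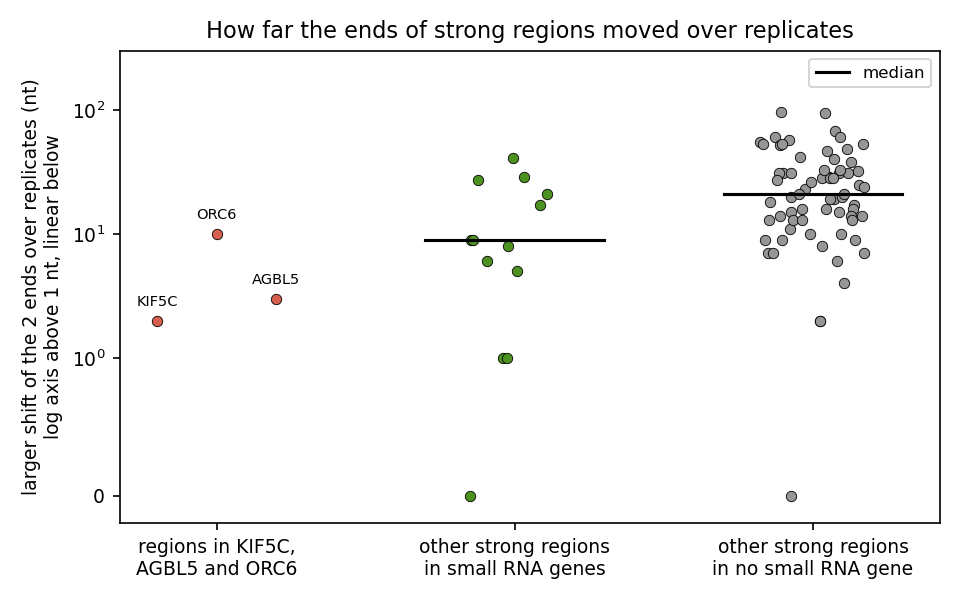
Larger of the shifts of both ends over the 3 replicates in strong regions, in nt, on an axis that is logarithmic above 1 nt. Columns are the regions in KIF5C, AGBL5 and ORC6, the other 13 strong regions in small RNA genes (median 9 nt) and the other 68 in none (median 21 nt). KIF5C lies at 2, AGBL5 at 3 and ORC6 at 10 nt.

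A single region in all 3 replicates with a mean read number of 50 or more was rare. It was found for 19 of the 1527 nuclear genes with any region in all 3 replicates (1.24%), which share 13 distinct regions since overlapping genes count together. Of the 19 genes, 10 were small RNA genes, 3 were long noncoding RNA genes and 6 were protein-coding. The 6 are 0.459% of the 1307 protein-coding genes with a region. How many small RNA and long noncoding RNA genes held a region in all 3 replicates is not given here. Their counts therefore have no background, and the make-up of the 19 cannot be judged. The 6 were KIF5C, AGBL5, ORC6, TMEM107, WDR74 and PTGES3. Small RNA genes overlapped the region in 3 of them, TRY-GTA2-1 in AGBL5, the U8 small nucleolar RNA gene SNORD118 in TMEM107 and the U2 small nuclear RNA gene RNU2-2 in WDR74. Over all 2337 nuclear-encoded regions in all 3 replicates 3.59% overlapped a small RNA gene, and over the 84 strong ones 16.7% did. The members were chosen with this pattern in view, so the share among them is not evidence of it.

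The genes most like the members by this pattern were mostly small RNA genes and their hosts. The small RNA genes among them were 73 to 217 nt long, which leaves little room for a second region. Their holding exactly 1 region thus follows largely from their length, and their number is not evidence about the members. After KIF5C and KIF5C-AS1, the highest means belonged to TRU-TCA1-1, the U3 small nucleolar RNA gene SNORD3A with 146 ± 6.51, SNORD118 with TMEM107 at 107 ± 4.51, and RNU2-2 with WDR74 at 78.0 ± 6.08 (SD, n = 3). TMEM107 and WDR74 held no peak outside that region, as was the case for KIF5C and AGBL5. PTGES3, which encodes a cochaperone of HSP90, was the only protein-coding gene beside KIF5C and ORC6 whose lone strong region overlapped no small RNA gene. Its read numbers were 53, 62 and 43. It differed from ORC6 in holding 6 weaker peaks over the replicates, the highest with a read number of 17, and in an end shift of 53 nt. The place of the region was alike. Along the strand of the peaks its centre lay at 96.8% of the PTGES3 interval and at 97.5% of the ORC6 interval. Just inside the limit of 50 lay PTGES3 at 52.7 and TRK-CTT1-1 at 50.7, and just outside it lay TRY-GTA5-1 with TRIM55 at 46.3.

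The relatives of the 3 genes gave no comparable peak. Among 16 genes for kinesin-1 subunits and related motors, KIF5C alone held a region in all 3 replicates, on the strand opposite to it, while 11 held a peak in any replicate. KIF5B, the widely expressed kinesin-1 heavy chain gene, held 4, 2 and 6 peaks but no region in all replicates. In a list of 16 genes for tubulin tail modification enzymes and cofactors, AGBL5 and TTL each held at least 1 such region. That of AGBL5 was the region over TRY-GTA2-1, while TTL, the tubulin tyrosine ligase gene, had 2 with a highest mean of 17. Of 16 genes for origin recognition and licensing, ORC6 and MCM4, a subunit gene of the replicative helicase, held one, and MCM4 had 2 with a highest mean of 37.7. ORC2, ORC3, ORC4 and ORC5 had peaks in at least 1 replicate without a region in all 3, and ORC1 held no peak. Without the members, 0, 1 and 1 of the 15 genes left in the kinesin, tubulin and licensing lists held a region in all 3 replicates. Of all 20043 protein-coding genes 6.52% did, so these small counts do not set the relatives apart. A single strong region was rare among all protein-coding genes, so its absence in the relatives is not a result about the members. The share of all protein-coding genes with a peak in any replicate was not computed, so counts of that kind have no background here. The lists hold no RNA levels, so binding and abundance cannot be told apart for any of these genes.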

How the data were processed

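The authors deposited 1 peak list per replicate on hg38, in BED layout without a header. Per the submitters' processing notes bedtools and deepTools were used. The aligner, peak caller, its settings and the treatment of molecular identifiers and multiply matching reads are not given in the sources used here. A deposited line consists of a position, a strand, a p-value from the authors' peak caller, a name that ends in a whole number (read number, at least 3) and an inner stretch of 1 to 4 nt. Lines with the same interval and strand were counted once, and peaks overlapping by 1 bp on 1 strand were merged over the lists (Python 3.11.15, pandas 2.3.3). The merging was tested on simulated data. Genes came from the RefSeq table of GRCh38.p14, by interval and without strand; start sites and strands came from its promoter table. With 1 group, no test was run. Members and lists were chosen with earlier results of these data known. The genes named were the members, genes covering or neighbouring their regions, list members with a region in all 3 replicates, and the up to 10 genes with a single strong region. Outside this rule, KIF5B, ORC1 to ORC5, LOC101928553, TRA-AGC8-1, MIR9899, SNORD148, RNU6-9, XIST, NUCKS1, NCL, PTMA, PTGES3, TRIM55 and the other tRNA genes were named after their values were seen. The sequence of the peaks was not used here, so the planned motif search was not run. Depth is known only as read numbers in peaks.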

Additional observations from a re-analysis of the deposited data

How the results depend on the processing

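The highest read numbers of the 3 regions stayed within 1 SD of the values given under every alternative run, and so did the 19 genes with a single strong region (within 1.5 times) except under other read limits: 62 genes at a mean of 20 and 6 at 100. With 1 replicate left out, in ranges, KIF5C held 1 to 2 regions, its strongest held 46.1% to 100% of the read number and began at 148881726 to 148881762, since only replicate 3 bridges the touching peaks there. The AGBL5 region then began at 27050781 to 27050783 and ended at 27050887 to 27050888, and that of ORC6 began at 46698114 to 46698116 and ended at 46698239 to 46698245. Requiring an overlap of 50% of both peaks split KIF5C into 2 regions (47.4% in the strongest, starting at 148881762) and left 68.1% in the strongest of AGBL5, ending at 27050887. These lower shares of KIF5C and AGBL5 are of sums over touching peaks, which may count the same reads more than once. As means over replicates, AGBL5 began at 27050783 and ended at 27050887, and ORC6 began at 46698116 and ended at 46698240. In all, 83 of the values under alternatives stayed within these limits and 18 moved. No paired analysis was possible because there is 1 group.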
